A study of Drosophila melanogaster with 12 samples.

Results

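The noncoding RNA genes described here are the spliceosomal small nuclear RNAs (snRNAs), the 7SK and 7SL RNAs, the RNA subunits of RNase P and RNase MRP, and the long noncoding RNA CR34335 in ovaries of Drosophila melanogaster. They were chosen by symbol alone, as every gene of the count table whose symbol begins with snRNA:, 7SLRNA, RNaseMRP or RNaseP, together with CR34335. The choice gave 36 of 15446 listed genes in 16 families. The larger families are made of several gene copies, with 5 copies of U1, 6 of U2, 3 of U4, 7 of U5 and 3 of U6. 7SL has 2 copies and each other family is 1 gene. Of the 36 genes, 34 were among the 8638 genes with enough counts to be tested. By RefSeq gene names, 15 members lie on chromosome arm 2L, 13 on 3R, 4 on 3L and 3 on X, and snRNA:U3:22A had no match.

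Ovary RNA was sequenced in 12 libraries, 2 in each of 6 groups. The groups were a germline-specific knockdown of nxf2 (dNxf2), the wild-type stock attp2, a CRISPR mutant labelled nxf2 -/-, the wild-type stock W1118, and a mutant and a heterozygote of nxf2 (-/- and +/-) that both carry panx FL10B, which the labels call tethered. Which driver and hairpin made the knockdown, how many mutant lines and flies went into a library, and what FL10B stands for are not stated in the labels. The flies of all groups were kept at 25°C, fed yeast and carry the age label 3-5 with no unit. nxf2 encodes a relative of the mRNA export receptor that acts with Panx and Piwi in the silencing of transposons, and the comparisons ask how the ovary transcriptome differs when it is depleted.

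Most snRNAs work as the RNA cores of the spliceosome. U1 pairs with the 5′ splice site and U2 with the branch point, after which U4, U5 and U6 join as a preassembled particle and U6 takes part in catalysis. The minor spliceosome removes a rare class of introns with U11, U12, U4atac and U6atac in place of U1, U2, U4 and U6, and shares U5. 7SK RNA holds the elongation kinase P-TEFb inactive, 7SL RNA is the scaffold of the signal recognition particle, RNase P trims the 5′ ends of tRNAs, RNase MRP cuts ribosomal RNA precursors and U7 guides the 3′ end processing of histone mRNAs. The libraries were primed on total RNA with not-so-random primers, which need no poly(A) tail.

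Library totals ranged from 3811630 to 11260925 counts, so that 3 counts stood for 0.275 to 0.772 CPM in 1 library. Levels below are in CPM, reads of a gene per library total on the usual scale, with totals adjusted by trimmed mean of M values (TMM) factors, and a gene was called at an adjusted p under 0.05 by edgeR's quasi-likelihood test with Benjamini-Hochberg adjustment over all 8638 genes. nxf2 mRNA was at 19.0 and 17.2 CPM in the knockdown and 36.1 and 49.2 in attp2, a log2 difference of -1.23 ± 0.15 (SE). It was at 29.9 and 33.6 CPM in the mutant and 69.5 and 68.8 in W1118 (-1.12 ± 0.14), and at 30.2 and 30.1 CPM in the mutant with Panx FL10B and 34.6 and 35.8 in the heterozygote (-0.22 ± 0.15, adjusted p = 0.334). Markers of the labelled tissue were present: 6 germline genes summed to 2890 to 4013 CPM, while 5 testis genes summed to 6.58 to 7.72 CPM in W1118 and 1.19 CPM at most in the other groups and 4 midgut genes to 2.60 CPM at most. In whole ovaries, fewer cells of a type and less RNA per cell cannot be told apart.

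Several copies did not carry separate information. In the 8 libraries without Panx FL10B, 5 sets of copies had counts within 10% of each other in every library. The 2 copies of 7SL RNA had 55950 to 153129 counts each and differed by at most 0.0444%. snRNA:U1:21D, snRNA:U1:95Ca and snRNA:U1:95Cb differed by at most 5.42% at 767 to 3280 counts. snRNA:U2:34ABb and snRNA:U2:34ABc differed by at most 1.08% at 166 to 3306 counts, and snRNA:U2:14B and snRNA:U2:38ABa by at most 7.23% at 77 to 1923 counts. The 3 copies of U6 differed by at most 8.33% at 0 to 18 counts. In the table these copies are therefore close to 1 measurement entered several times, and the 34 tested genes reduce to 27 sets.

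**Figure D1:**
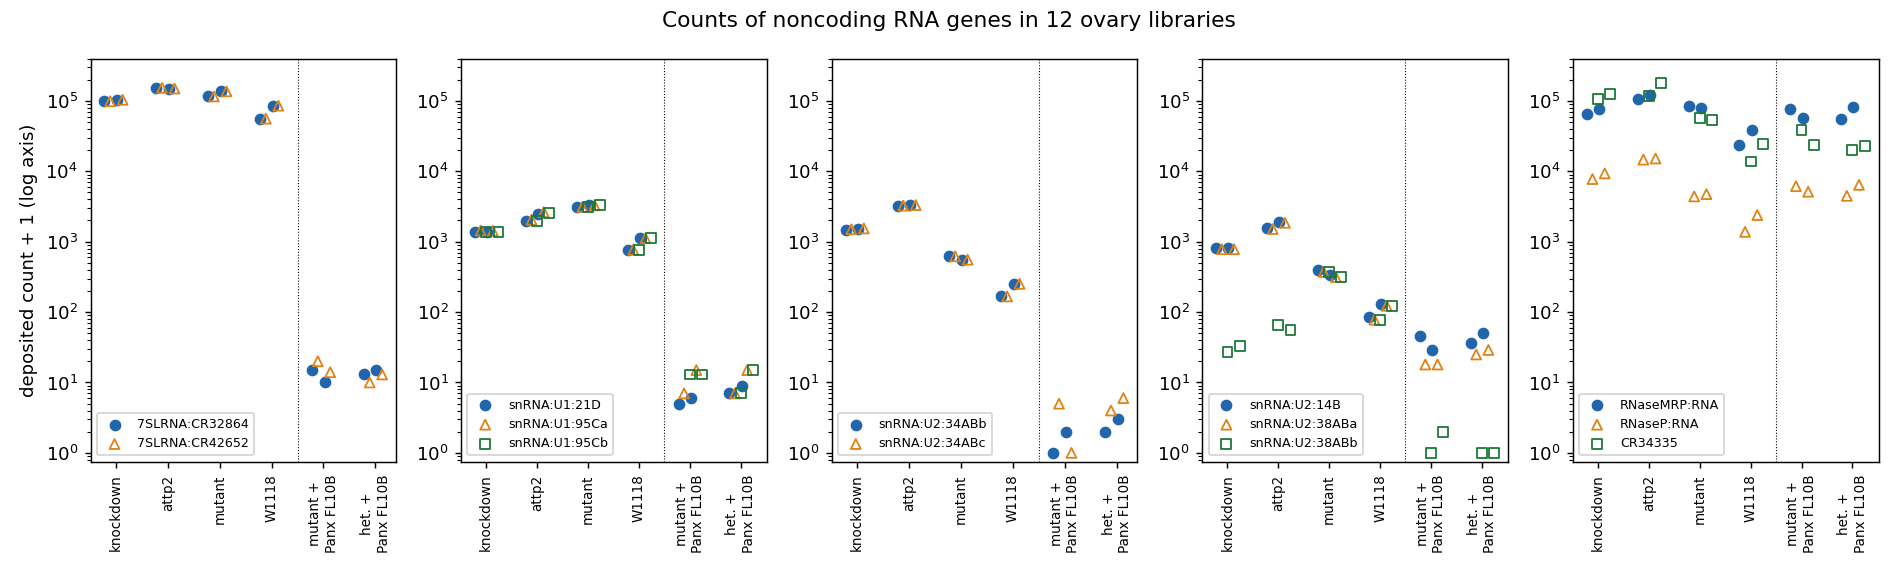
Deposited counts plus 1 on a log axis for 13 noncoding RNA genes in the 12 libraries, with the groups in columns, 1 symbol per gene copy and a dotted line before the Panx FL10B groups. Copies of 7SL, U1 and U2 lie on each other in the first 8 libraries. An exception is 1 U2 copy, which lies far below the others in attp2 and the knockdown. In the 4 Panx FL10B libraries the copies drop, to 19 counts or fewer for 7SL. RNase P RNA keeps 4480 counts or more there, RNase MRP RNA 55986 or more and CR34335 19952 or more. RNase P RNA and CR34335 still lie below their counts in attp2 and the knockdown.

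The 4 Panx FL10B libraries stood apart in the same genes. The 7SL copies had 9 to 19 counts there, the set of 3 U1 copies 4 to 14, snRNA:U2:34ABb and snRNA:U2:34ABc 0 to 5, and snRNA:U2:14B with snRNA:U2:38ABa 17 to 50. Of the 26 listed genes with at least 10 CPM in all 8 other libraries and under 5% of their lowest level there in all 4 of these, 7 were noncoding RNAs of this set. The submitters' processing notes name the counting tool for the other 8 libraries only, so a different treatment of reads that match several copies and a difference in RNA cannot be told apart. Both Panx FL10B groups are low alike, so the comparison between them is not crossed with this split, but the copies named here rest on very few reads in it.

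2 members were too low to test. snRNA:U7 had at most 2 counts in any library, and none in the knockdown or attp2. snRNA:U3:22A, an RNA of ribosomal RNA processing, had no count in any library, and 3 counts over the total of 93631112 would be 0.0320 CPM. snRNA:U4:25F passed the filter at 0.260 to 2.12 CPM and was called in no comparison. The U6 copies were also near the lower limit, at no more than 1.67 CPM.

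Together the 36 genes took 4.21% and 4.72% of all counts in the knockdown and 5.12% and 5.74% in attp2, 4.59% and 5.71% in the mutant and 4.11% and 3.81% in W1118. With Panx FL10B they took 1.64% and 1.37% in the mutant and 1.72% and 1.84% in the heterozygote. The share was lower in both knockdown libraries than in attp2 and higher in both mutant libraries than in W1118, without overlap. 7SL RNA, counted in both copies, took 2.13% to 3.57% of counts in the 8 libraries without Panx FL10B. Without 7SL the share was 2.08% and 2.47% in the knockdown and 2.36% and 3.08% in attp2, which overlapped, and 1.97% and 2.14% in the mutant and 1.175% and 1.165% in W1118, which did not. The genes with snRNA symbols, 7SK among them, took 0.155% and 0.159% of counts in the knockdown and 0.207% and 0.253% in attp2, and 0.296% and 0.334% in the mutant and 0.161% and 0.145% in W1118.

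In the knockdown the U2 snRNAs and RNase P RNA were lower than in attp2, and no member was higher. Of the 34 tested genes 6 fell and 0 rose, where 7.70% of all tested genes fell and 8.00% rose. Counting each set of near-equal copies once, 4 of 27 sets fell. No member was higher at an unadjusted p under 0.05 either, and DESeq2 called 7 lower and 0 higher. The median log2 difference of the members was -0.31 and that of all tested genes -0.03.

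All 6 copies of U2 were lower in both knockdown libraries than in either attp2 library, and 5 of them were called. The groups did not overlap for 21 of the 34 members in this comparison, and no share of all tested genes is given beside it. The near-equal pair snRNA:U2:34ABb and snRNA:U2:34ABc is represented by snRNA:U2:34ABb, at 171 and 180.5 CPM in the knockdown and 298 and 299.7 in attp2. That is a log2 difference of -0.76 ± 0.10, 1.70-fold lower (adjusted p = 0.000279). snRNA:U2:38ABa was at 89.8 and 92.2 CPM in the knockdown and 140.5 and 169.9 in attp2 (-0.77 ± 0.11, adjusted p = 0.000489), and its near-equal copy snRNA:U2:14B gave -0.75 ± 0.12. snRNA:U2:34ABa, whose counts were not tied to another copy, was at 55.9 and 64.4 CPM in the knockdown and 86.2 and 150.0 in attp2. Its log2 difference of -0.97 ± 0.21 (adjusted p = 0.0102) was the largest fall of the 6 and the least even between attp2 libraries. snRNA:U2:38ABb was at 2.99 and 3.78 CPM in the knockdown and 5.94 and 4.95 in attp2 and was not called (-0.68 ± 0.24, adjusted p = 0.0720).

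RNase P RNA was at 893 and 1101 CPM in the knockdown and 1359 and 1390 in attp2, a log2 difference of -0.46 ± 0.12 (adjusted p = 0.0232). RNase MRP RNA was at 7562 and 9084 CPM in the knockdown and 9920 and 11240 in attp2, and at -0.35 ± 0.12 it did not pass the test (adjusted p = 0.0692). The groups did not overlap for either RNA. The U1 copies had log2 differences of -0.37 to -0.12 and none was called, with 3 of 5 at an unadjusted p under 0.05 and 0 called by DESeq2. The U4 copies, at -0.22 to 0.92, and the U5 copies, at -0.21 to 0.36, had overlapping groups throughout, and 0 of these 10 reached an unadjusted p under 0.05 or a DESeq2 call. Of the minor spliceosomal RNAs, U11, U4atac and U6atac had log2 differences of -0.62, -0.52 and -0.80 with adjusted p of 0.0665, 0.0660 and 0.101, and U12 one of -0.05. CR34335, with 12120 and 14980 CPM in the knockdown and 10870 and 16570 in attp2, and 7SK, with 107 and 115.5 CPM in the knockdown and 117 and 124 in attp2, were not called. The 7SL copies were at 11370 and 12240 CPM in the knockdown and 14200 and 13700 in attp2 (-0.24 ± 0.13, adjusted p = 0.231).

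These 6 calls depended on the control stock and the libraries used. With W1118 as the control all 6 genes turned higher in the knockdown, and with the mean of both stocks 5 of the 6 did. When the fit held only the 4 knockdown and attp2 libraries, only snRNA:U2:34ABb and snRNA:U2:34ABc were called. Without knockdown replicate 1 the calls of RNase P RNA (-0.32) and snRNA:U2:34ABa (-0.87) were lost. The number of calls also changed when an attp2 library was left out, and without attp2 replicate 2 not every called member was lower. Without the Panx FL10B libraries RNase P RNA (-0.46) was not called. The follicle cell markers moved with this comparison: 4 of 5 were higher in the knockdown, and their summed level was 5961 to 6321 CPM in the knockdown and 2374 to 2597 in attp2. Of 4 fat body markers 1 was lower, with sums of 15.1 to 44.96 CPM in the knockdown and 89.3 to 101.9 in attp2. Of 6 germline markers 1 was higher, with sums of 3594 to 3731 CPM in the knockdown and 3516 to 3623 in attp2. No marker of these lists was at 0. Their part in the differences was not tested.

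In the nxf2 mutant most of these RNAs were higher than in W1118, across both spliceosomes and the RNase subunits. Of the 34 tested genes 26 rose and 0 fell, where 15.0% of all tested genes rose and 11.8% fell. By sets of near-equal copies, 22 of 27 rose. In the mutant and W1118 libraries alone, snRNA:U2:38ABb was also within 10% of snRNA:U2:14B and snRNA:U2:38ABa, and with these 3 as 1 set 21 of 26 rose. No member was lower at an unadjusted p under 0.05, and DESeq2 called 25 higher and 0 lower. The median log2 difference was 1.04 for the members and 0.04 for all tested genes. The 8 members not called were the 7SL copies, U12, the U6 copies, snRNA:U4:25F and snRNA:U5:35D.

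The largest differences were those of 3 copies of U5, which aligns the exons in both spliceosomes. snRNA:U5:34A was at 65.4 and 58.95 CPM in the mutant and 13.4 and 16.4 in W1118, a log2 difference of 2.04 ± 0.20, 4.12-fold higher (adjusted p = 2.06e-05). snRNA:U5:38ABa was at 37.1 and 26.6 CPM in the mutant and 6.18 and 9.04 in W1118 (2.03 ± 0.24). snRNA:U5:23D was at 38.1 and 37.0 CPM in the mutant and 10.04 and 9.50 in W1118 (1.95 ± 0.30). The other U5 copies were also above W1118 without overlap: snRNA:U5:63BC by 1.56, snRNA:U5:38ABb by 1.51 and snRNA:U5:14B by 1.12 on the log2 scale, all called, and snRNA:U5:35D by 0.98, which was not (adjusted p = 0.112).

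The 5 U1 copies rose by nearly the same factor. snRNA:U1:82Eb was at 513 and 647 CPM in the mutant and 302 and 274 in W1118 (log2 difference 1.01 ± 0.13). snRNA:U1:95Cc was at 255 and 327 CPM in the mutant and 147 and 122 in W1118 (1.12 ± 0.15), and the near-equal set led by snRNA:U1:21D gave 1.07 ± 0.13. The 6 U2 copies rose by 0.80 to 1.11 on the log2 scale. snRNA:U2:38ABb was at 41.7 and 40.9 CPM in the mutant and 19.8 and 18.5 in W1118, and snRNA:U2:34ABa at 58.4 and 64.4 CPM in the mutant and 33.97 and 30.3 in W1118. The U4 copies snRNA:U4:38AB and snRNA:U4:39B, which pair with U6 before activation, rose by 1.41 ± 0.21 and 1.30 ± 0.19. snRNA:U4:39B was at 128.5 and 119 CPM in the mutant and 51.7 and 49.2 in W1118. The 3 U6 copies had 2 counts in the mutant and 2 in W1118 over both libraries, which allows no statement.

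Of the minor spliceosomal RNAs, U4atac was at 15.2 and 15.6 CPM in the mutant and 5.15 and 5.67 in W1118 (log2 difference 1.49 ± 0.28, adjusted p = 0.00206). U6atac was at 2.91 and 3.90 CPM in the mutant and 1.29 and 1.07 in W1118 (1.54 ± 0.53, adjusted p = 0.0476). U11 was at 13.75 and 20.1 CPM in the mutant and 10.04 and 8.27 in W1118 (0.90 ± 0.29, adjusted p = 0.0325). All 3 were called without overlap of the groups, and U6atac, with 12 counts in the W1118 libraries together, is the weakest of them: its adjusted p passed the threshold neither with relative log expression scaling nor with DESeq2. U12, the minor counterpart of U2, was at 4.47 and 9.74 CPM in the mutant and 6.18 and 6.89 in W1118, so that the mutant libraries lay on either side of W1118 (0.09 ± 0.35).

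Of the RNAs outside the spliceosome, 4 rose and 7SL was not called. RNase MRP RNA was at 9561 and 10450 CPM in the mutant and 6045 and 5947 in W1118 (log2 difference 0.74 ± 0.12, adjusted p = 0.000907). RNase P RNA was at 491 and 615 CPM in the mutant and 355 and 366 in W1118 (0.62 ± 0.12, adjusted p = 0.00316). 7SK RNA was at 266 and 263 CPM in the mutant and 179.6 and 174 in W1118 (0.58 ± 0.09, adjusted p = 0.000682). CR34335 was at 6456 and 6884 CPM in the mutant and 3545 and 3789 in W1118 (0.86 ± 0.20, adjusted p = 0.00704). All 4 called RNAs were higher in both mutant libraries than in either W1118 library. The groups did not overlap for 27 of the 34 members in this comparison, with near-equal copies counted separately. No share of all tested genes is given beside this count, which is a description only. The 7SL copies were at 12930 and 17740 CPM in the mutant and 14400 and 13080 in W1118, with overlapping groups and no call (0.16 ± 0.13, adjusted p = 0.401).

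**Figure D2:**
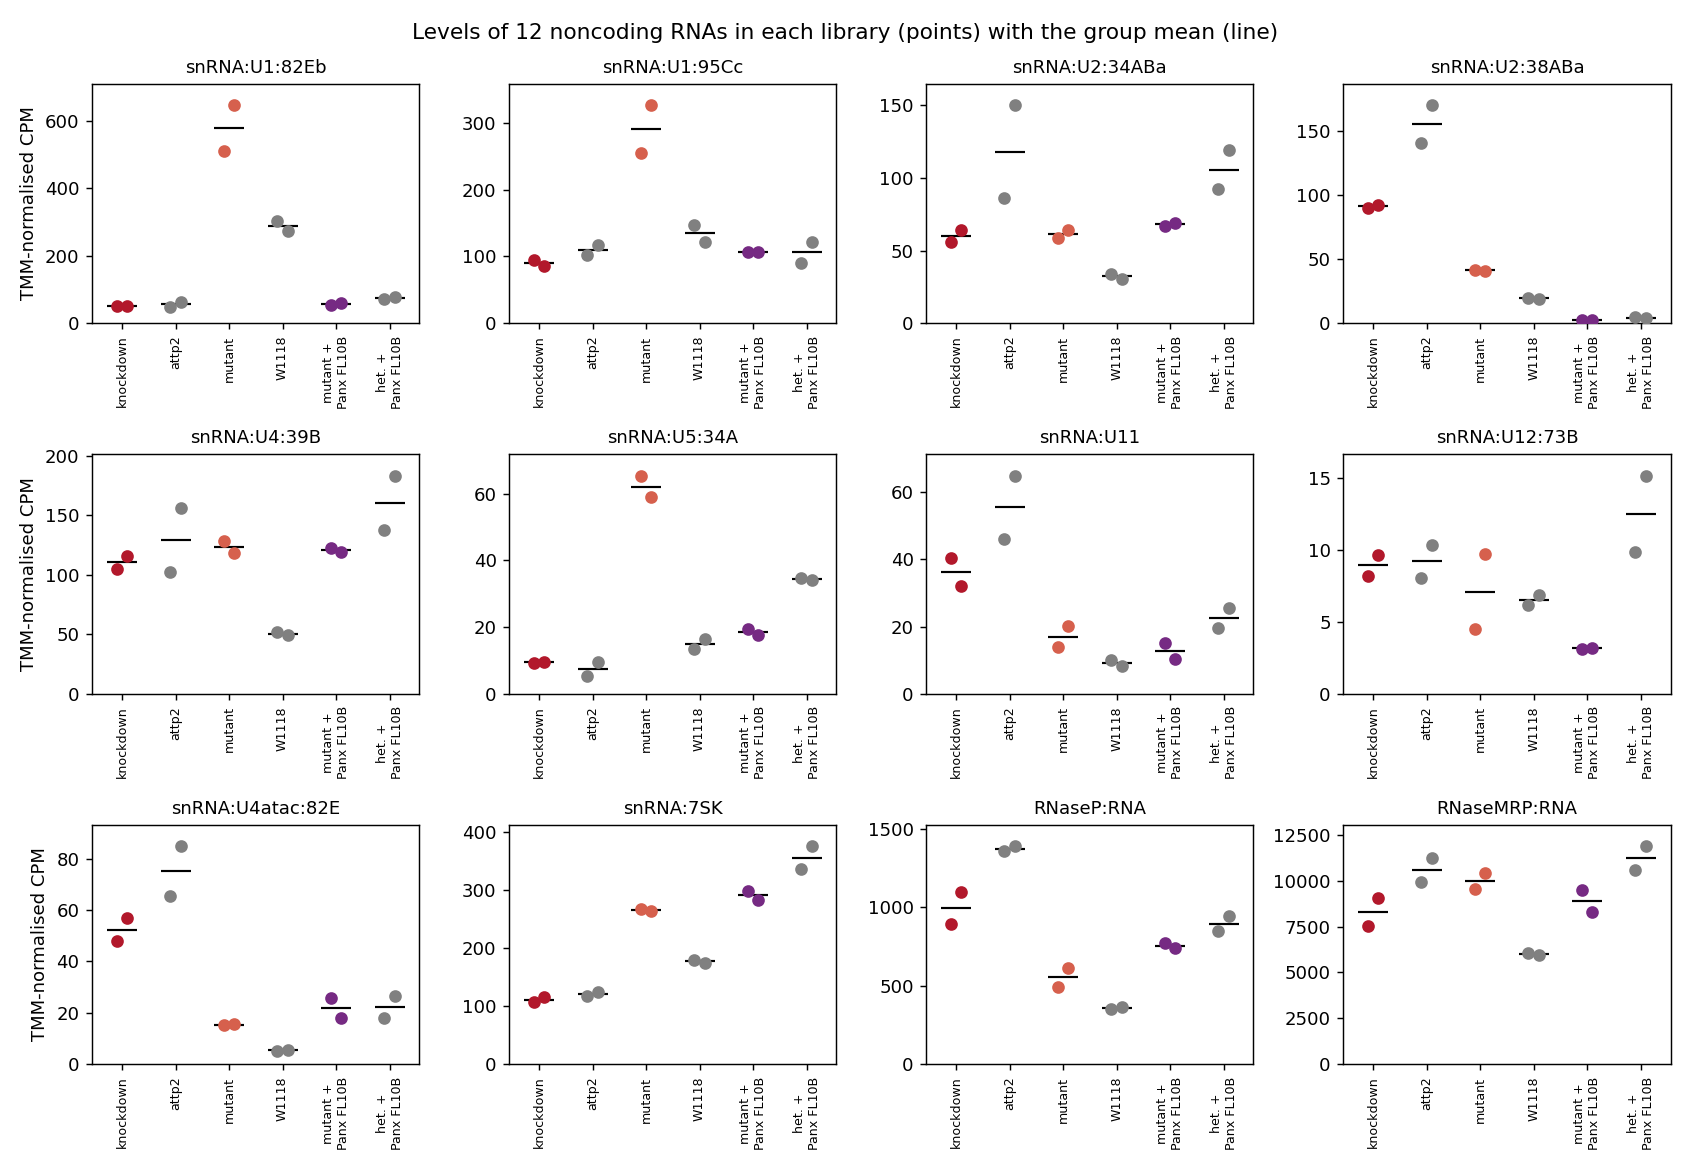
TMM-normalised CPM (linear axis from 0) of 12 noncoding RNAs in each library, as points with the group mean as a line, by group. U1, U4 and U5 copies, 7SK and RNase MRP RNA lie higher in the mutant than in W1118, while attp2 lies far above W1118 for snRNA:U2:38ABa, U11, U4atac and RNase P RNA and below it for snRNA:U1:82Eb.

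The rise in the mutant also depended on the wild-type stock. With attp2 as the control 13 of the 26 calls were kept, and of all 34 members 14 were then higher and 13 lower in the mutant. Of the 8638 tested genes 2323 were higher and 2526 lower with that control. With the mean of both stocks 16 of the 26 were kept, and 17 members were higher and 5 lower. Of all tested genes 1921 were then higher and 1699 lower. Leaving out a W1118 library took away the calls of CR34335, U11, snRNA:U2:34ABa and U6atac, and leaving out W1118 replicate 1 also that of snRNA:U5:14B. The call of U6atac was also lost without either mutant library, and those of U11 and snRNA:U2:34ABa without mutant replicate 2. Fat body markers were higher in the mutant for 2 of 4 genes, with a summed level of 110.0 to 251 CPM in the mutant and 73.1 to 75.8 in W1118, and germline markers were lower for 2 of 6, at 2985 to 3079 CPM in the mutant and 3876 to 4013 in W1118. 1 of 3 yolk genes was lower, with sums of 4860 to 5352 CPM in the mutant and 6728 to 7021 in W1118. Follicle cell markers were higher for 1 of 5 and lower for 1, at 2588 to 2666 CPM in the mutant and 2670 to 2810 in W1118. Muscle markers were higher for 1 of 4, at 115.3 to 219.1 CPM in the mutant and 184.8 to 187.0 in W1118. The 5 testis markers summed to 0.260 to 0.335 CPM in the mutant and 6.58 to 7.72 in W1118, and the 1 of them that was tested was lower. In W1118 2 fat body and 3 testis markers had no count, and in the mutant 1 testis marker had none. No germline, yolk, follicle cell or muscle marker was at 0. Their part in the differences was not tested.

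The responses to knockdown and to mutation differed for most members. The difference of the effects (knockdown minus attp2, less mutant minus W1118) was tested in the same model. It was called below 0 for 25 of 34 members and above 0 for 0, against 14.5% below and 12.5% above among all tested genes. By sign alone, called or not, it was below 0 for 30 members and above 0 for 4, with near-equal copies counted separately. The median was -1.44 for the members and itself below 0, at -0.10, for all tested genes. DESeq2 called 26 below and 0 above, and 0 were above at an unadjusted p under 0.05. For the set led by snRNA:U1:21D it was -1.43 ± 0.18, for snRNA:U2:38ABa -1.87 ± 0.17 and for snRNA:U5:34A -1.69 ± 0.30. For U4atac it was -2.02 ± 0.33, for RNase MRP RNA -1.09 ± 0.17 and for RNase P RNA -1.08 ± 0.17. The 7SL copies, at -0.40 ± 0.19 (adjusted p = 0.129), U12, snRNA:U5:14B, snRNA:U5:35D, snRNA:U4:25F and the U6 copies did not pass. The knockdown and the mutant were each set against their own stock, so a difference between knockdown and mutation and a difference between the stocks' responses cannot be told apart.

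The wild-type stocks, neither of them labelled with a change of nxf2, differed in these RNAs by -3.78 to 2.37 on the log2 scale. nxf2 mRNA itself was higher in W1118, at 69.5 and 68.8 CPM in W1118 and 36.1 and 49.2 in attp2 (0.70 ± 0.14, adjusted p = 0.000827). In W1118, 7 members were higher and 16 lower than in attp2, where 25.2% of all tested genes were higher and 30.3% lower. By sets, 7 were higher and 12 lower of 27. U4atac was at 5.15 and 5.67 CPM in W1118 and 65.6 and 84.8 in attp2, 13.7-fold lower (log2 difference -3.78 ± 0.25, adjusted p = 7.69e-08). U6atac was 10.2-fold lower (-3.36 ± 0.46) and U11 6.16-fold lower (-2.62 ± 0.26), while U12 at -0.48 ± 0.33 was not called. RNase P RNA was at 355 and 366 CPM in W1118 and 1359 and 1390 in attp2 (-1.93 ± 0.13), RNase MRP RNA was lower by less (-0.82 ± 0.12), and CR34335 was at 3545 and 3789 CPM in W1118 and 10870 and 16570 in attp2 (-1.90 ± 0.20).

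Copies of a single snRNA went in opposite directions between the stocks. snRNA:U2:38ABa was at 19.8 and 18.7 CPM in W1118 and 140.5 and 169.9 in attp2 (log2 difference -3.02 ± 0.13), whereas snRNA:U2:38ABb was at 19.8 and 18.5 CPM in W1118 and 5.94 and 4.95 in attp2 (1.81 ± 0.21). The count of snRNA:U2:38ABb was 99.2% to 100.5% of that of snRNA:U2:38ABa in the W1118 and mutant libraries, and 2.91% to 4.22% of it in the attp2 and knockdown libraries. The pair was thus counted alike in one background and apart in the other. snRNA:U1:82Eb was 5.16-fold higher in W1118 (2.37 ± 0.14), at 148% to 161% of the count of snRNA:U1:21D in the W1118 and mutant libraries and 26.8% to 32.4% of it in the attp2 and knockdown libraries. The other U1 copies differed between stocks by -0.23 to 0.28 on the log2 scale and were not called. The U5 copies were all above attp2 in W1118, by 0.33 to 1.68, with 4 of 7 called, and the U4 copies snRNA:U4:38AB and snRNA:U4:39B were lower by 1.29 and 1.36 on the log2 scale. 7SK was higher in W1118 (0.55 ± 0.09) and the 7SL copies were not called (-0.02 ± 0.13). Each U6 copy was called lower, from 2 counts in W1118 and 35 or 36 in attp2, a call lost without W1118 replicate 2 and with DESeq2.

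A ratio of counts within a library needs no scaling. RNase P RNA had 11.8% to 12.1% of the counts of RNase MRP RNA in the knockdown and 12.4% to 13.7% in attp2, 5.14% to 5.89% in the mutant and 5.87% to 6.15% in W1118, and 8.13% to 8.92% in the mutant and 7.95% to 8.00% in the heterozygote with Panx FL10B. The ratio thus differed less between each nxf2 group and its own control than between the 3 backgrounds. Nothing in the labels says whether the backgrounds were sequenced together, so stock and library set cannot be told apart.

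**Figure D3:**
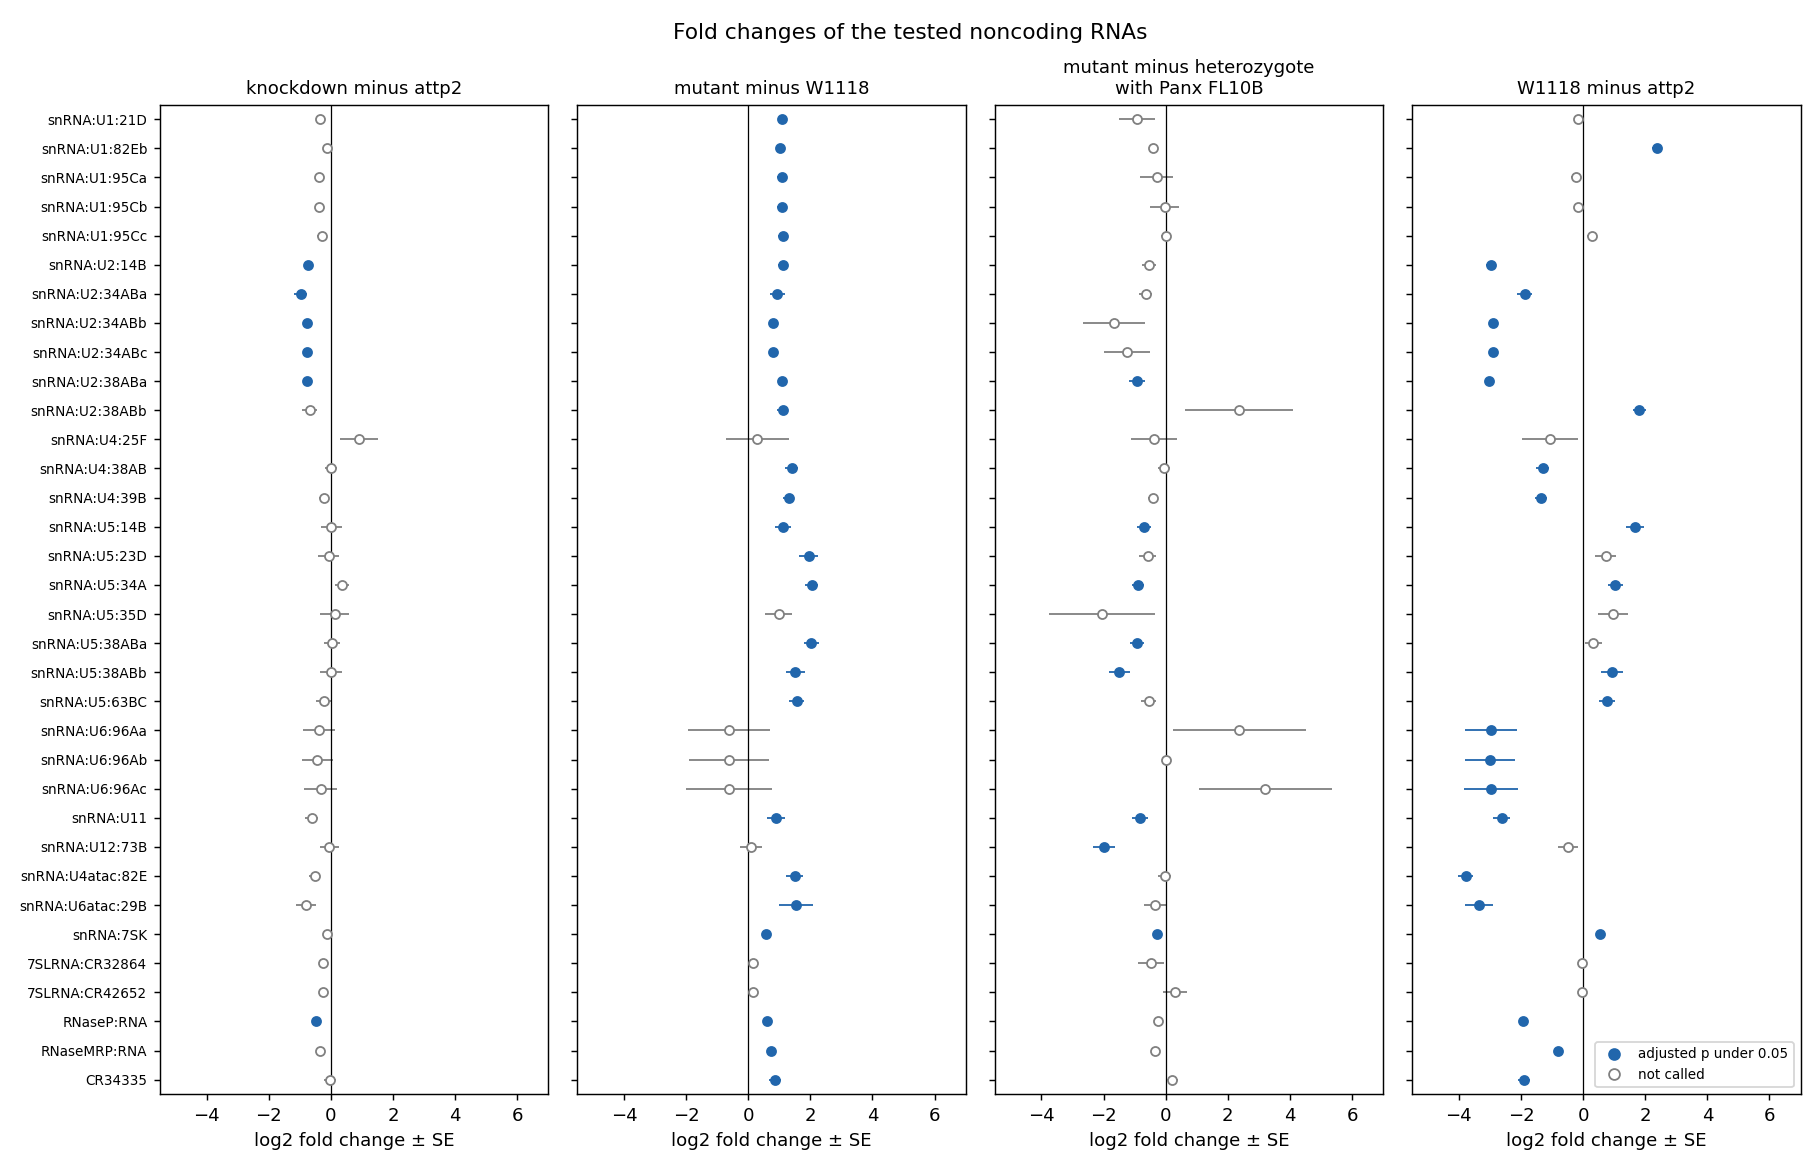
Log2 fold change ± SE of the 34 tested noncoding RNAs in 4 comparisons, each first group minus the second, with filled points for an adjusted p under 0.05. Filled points lie left of 0 for 5 U2 copies and RNase P RNA in the knockdown. They lie right of 0 for 26 members in the mutant and left of 0 for 8 in the mutant with Panx FL10B. W1118 minus attp2 spans -3.78 to 2.37 over all points.

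With Panx FL10B in both groups, 8 members were lower in the mutant than in the heterozygote and 0 were higher, where 10.2% of all tested genes were lower and 9.27% higher. No member was higher at an unadjusted p under 0.05, and DESeq2 called 7 lower and 0 higher. The median log2 difference was -0.41 for the members and -0.01 for all tested genes. Among the called members U12 had the largest difference, at 3.14 and 3.17 CPM in the mutant and 9.84 and 15.2 in the heterozygote, 3.99-fold lower (-2.00 ± 0.35, adjusted p = 0.00135). U11, its partner in intron recognition, was at 15.1 and 10.4 CPM in the mutant and 19.5 and 25.6 in the heterozygote (-0.83 ± 0.26, adjusted p = 0.0374). U4atac, at 25.6 and 18.1 CPM in the mutant and 17.8 and 26.65 in the heterozygote, and U6atac, at 4.39 and 5.18 in the mutant and 3.22 and 8.54 in the heterozygote, had overlapping groups and were not called.

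Of the 7 U5 copies 4 fell in this comparison. snRNA:U5:38ABb was at 3.01 and 3.60 CPM in the mutant and 9.27 and 9.42 in the heterozygote (-1.50 ± 0.34, adjusted p = 0.00683). snRNA:U5:34A was at 19.3 and 17.7 CPM in the mutant and 34.6 and 34.2 in the heterozygote (-0.89 ± 0.20, adjusted p = 0.00588), and snRNA:U5:38ABa at 14.7 and 11.2 CPM in the mutant and 22.1 and 26.9 in the heterozygote (-0.92 ± 0.22, adjusted p = 0.0111). snRNA:U5:14B was lower by a smaller margin (-0.69 ± 0.23, adjusted p = 0.0490), snRNA:U5:63BC and snRNA:U5:23D, at -0.54 and -0.58, were not called, and snRNA:U5:35D had 1 count in the mutant libraries and 4 in the heterozygote. snRNA:U2:38ABa was called (-0.91 ± 0.25, adjusted p = 0.0241) at 2.13 and 2.45 CPM in the mutant and 4.54 and 4.12 in the heterozygote, from 34 counts in the mutant and 52 in the heterozygote, and DESeq2 did not call it. snRNA:U2:34ABa, the U2 copy best covered there, was at 67.0 and 69.3 CPM in the mutant and 92.5 and 119 in the heterozygote and just missed the threshold (-0.64 ± 0.21, adjusted p = 0.0526). 7SK RNA was at 298.5 and 282.5 CPM in the mutant and 335 and 374 in the heterozygote (-0.29 ± 0.09, adjusted p = 0.0390).

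No U1 or U4 copy was called in this comparison, with 1 of 5 U1 copies and 1 of 3 U4 copies lower at an unadjusted p under 0.05 and 0 called by DESeq2. RNase MRP RNA was at 9483 and 8281 CPM in the mutant and 10590 and 11880 in the heterozygote (-0.34 ± 0.12, adjusted p = 0.0656). RNase P RNA was at 770.5 and 738 CPM in the mutant and 848 and 944 in the heterozygote (-0.25 ± 0.12, adjusted p = 0.181). Neither RNase RNA overlapped between the groups, and CR34335 did (0.22 ± 0.19). The groups did not overlap for 21 of the 34 members in this comparison, with near-equal copies counted separately. Here too no share of all tested genes is given, and the count is a description only. Leaving out any 1 of the 4 Panx FL10B libraries left 2 to 4 of the 8 calls: 4 without heterozygote replicate 1 or without mutant replicate 1, and 2 without heterozygote replicate 2 or without mutant replicate 2. U12 was called in all 4 of these fits, and snRNA:U2:38ABa, 7SK and snRNA:U5:14B in none of them. 7SK and snRNA:U5:14B were not called with relative log expression or upper-quartile scaling. Follicle cell markers were lower in the mutant for 4 of 5 genes, with summed levels of 1002 to 1021 CPM in the mutant and 1986 to 1996 in the heterozygote, and muscle markers were higher for 3 of 4, at 179.2 to 181 CPM in the mutant and 84.4 to 90.2 in the heterozygote. Yolk genes were lower for 2 of 3, at 3762 to 3934 CPM in the mutant and 6362 to 6458 in the heterozygote. Germline markers were higher for 2 of 6 and lower for 1, at 3622 to 3692 CPM in the mutant and 2890 to 3089 in the heterozygote. Fat body markers were higher for 1 of 4 and lower for 1, at 40.75 to 44.7 CPM in the mutant and 76.85 to 81.9 in the heterozygote. No marker of these 5 lists was at 0, and their part in the differences was not tested.

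The mutant with Panx FL10B was also set against the mutant without it, which share the nxf2 genotype. There 2 members were higher and 20 lower, where 18.4% of all tested genes were higher and 19.9% lower. Background, library set and counting cannot be told apart in this comparison, and the fold changes of near-equal copies, down to -13.27 for 7SLRNA:CR32864, are not compared further. Of the genes outside the near-equal sets of the 8 libraries without Panx FL10B, 13 were called, 11 of them lower. snRNA:U2:38ABb had 0 and 1 counts with Panx FL10B and 373 and 315 without it, and was called lower. In the mutant without Panx FL10B its count was 100.3% to 100.5% of that of snRNA:U2:38ABa. Its fall is therefore not separate from those of the near-equal copies. snRNA:U5:35D had 1 and 0 counts with Panx FL10B and 135 and 77 without it, and was also called lower. snRNA:U1:82Eb was lower by 3.34 and snRNA:U1:95Cc by 1.44 on the log2 scale. The U5 copies snRNA:U5:23D, snRNA:U5:34A, snRNA:U5:38ABa, snRNA:U5:38ABb and snRNA:U5:63BC were lower as well, with log2 differences of -2.35 to -1.26, and snRNA:U5:14B was not called. CR34335 was at 4833 and 3410 CPM with Panx FL10B and 6456 and 6884 without it (-0.69 ± 0.19, adjusted p = 0.0135). RNase P RNA was at 770.5 and 738 CPM with Panx FL10B and 491 and 615 without it (0.45 ± 0.12, adjusted p = 0.0112). U12 was lower (-1.15 ± 0.36) and snRNA:U4:38AB higher (0.52 ± 0.19). Each of the calls of CR34335, RNase P RNA, U12 and snRNA:U4:38AB was lost when certain single libraries were left out: that of CR34335 without replicate 2 of either group, that of RNase P RNA without either Panx FL10B library or replicate 1 of the other group, that of U12 without either Panx FL10B library or replicate 2 of the other group, and that of snRNA:U4:38AB without any 1 of the 4. The calls of the other 9 held when any 1 of the 4 libraries was left out. 7SK, RNase MRP RNA, U11, U4atac and U6atac were not called.

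Proteins that bind or make these RNAs were counted in 11 lists of 90 genes, of which 89 were tested. In the knockdown 2 were higher and 2 lower than in attp2, in the mutant 9 higher and 4 lower than in W1118, and in the mutant with Panx FL10B 3 higher and 9 lower than in the heterozygote. These shares lie below or near those of all tested genes given above. The LSm proteins, which form the ring on U6 and on decaying mRNAs, were the list with the most calls in the mutant, 5 of 9 higher, with LSm-4 at 39.6 and 40.6 CPM in the mutant and 28.6 and 24.5 in W1118 (0.61 ± 0.14, adjusted p = 0.00796). CG17768 has the same values as LSm-4 in every library named here and counts as 1 measurement with it. In the knockdown 2 LSm genes were lower, CG2021 by 1.17 ± 0.21 and LSm1 by 0.72 ± 0.18 on the log2 scale.

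Of the 10 Sm core and U1 proteins 1 was called, snRNP-U1-C, which was lower in the mutant with Panx FL10B than in the heterozygote (-0.68 ± 0.21, adjusted p = 0.0378). Smn, which loads the Sm ring onto snRNAs, was at 25.8 and 26.4 CPM in the mutant and 47.6 and 42.3 in W1118 (-0.78 ± 0.15, adjusted p = 0.00225), and at 26.35 and 20.3 CPM in the mutant with Panx FL10B and 34.6 and 30.5 in the heterozygote (-0.47 ± 0.15, adjusted p = 0.0439). rig, the Gemin5 homologue, was lower in the same comparisons, by 0.36 ± 0.11 and 0.43 ± 0.11 on the log2 scale. bin3, the fly relative of the enzyme that caps 7SK, was at 394 and 390.1 CPM in the mutant and 526 and 528 in W1118 (-0.43 ± 0.09, adjusted p = 0.00349), while 7SK itself was higher there. Pop4 (CG8038), a protein of both RNases, was at 59.7 and 48.3 CPM in the mutant and 33.7 and 31.4 in W1118 (0.74 ± 0.19, adjusted p = 0.0124). Slbp, which binds the histone mRNA stem loop that U7 acts beside, was at 36.6 and 36.6 CPM in the mutant with Panx FL10B and 63.6 and 69.05 in the heterozygote (-0.86 ± 0.11, adjusted p = 0.000110).

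By the Ensembl annotation, 19 members overlap another gene, 17 of them within an intron. No source used here gives the annotation or the use of strand in counting. Reads of a host transcript that fall within a member therefore cannot be told apart from reads of the member. The cluster of snRNA:U2:38ABa, snRNA:U2:38ABb, snRNA:U4:38AB, snRNA:U5:38ABa and snRNA:U5:38ABb lies within sick. sick rose in all 3 nxf2 comparisons, by 1.06 in the knockdown, 0.90 in the mutant and 1.30 in the mutant with Panx FL10B on the log2 scale. In the mutant all 5 members of the cluster rose with it, snRNA:U5:38ABa the most (2.03). In the knockdown snRNA:U2:38ABa fell and the other 4 were not called. With Panx FL10B snRNA:U2:38ABa, snRNA:U5:38ABa and snRNA:U5:38ABb fell and the other 2 were not called. snRNA:U2:38ABa and snRNA:U5:38ABa lie on the strand opposite to sick, and the other 3 on its strand. RNase P RNA lies in an intron of ATPsynC, listed as CG1746, which was called in none of the 3 comparisons (0.06, 0.34 and 0.29). U4atac lies in an intron of cno, which fell in the mutant (-0.86, adjusted p = 0.000873) where U4atac rose. RNase MRP RNA lies on the opposite strand within an intron of CG10365, and that gene rose with it in the mutant (0.64, adjusted p = 0.0119).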

How the data were processed

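Per the labels' protocols, total ovary RNA was taken with Trizol, reverse transcribed with not-so-random primers and size-selected on a gel, a step that can lose products of short RNAs. The authors deposited raw counts of reads per gene, not normalised, in 1 table of 12 libraries. The submitters' processing notes name STAR 2.5.2a, cutadapt 1.16, bcl2fastq 1.8.4 and the build dm3, and only for the 8 libraries without Panx FL10B also featureCounts 1.6.1 and deepTools 2.5.7. No source used here gives the annotation, the use of strand or the treatment of reads matching several copies.

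The deposited counts went through filterByExpr and TMM scaling into edgeR 4.0.16 (R 4.3.3), with robust quasi-likelihood testing, all 12 libraries sharing 1 fit of 6 group means (6 residual degrees of freedom, common coefficient of biological variation 0.102). A group has 2 libraries, and nothing says that they came from separate flies, so p-values measure the spread between these libraries. An exact permutation test of 2 against 2 cannot go below p = 0.333. A lack of overlap between groups is therefore a description only, with no share of all tested genes to set it against. Errors of log2 differences are standard errors of this fit. The 3-count limit covers counting error only. All 12 columns were mapped to samples by name. Which stock is the control of which nxf2 group was read from names alone. DESeq2 1.42.0 and other scalings, filters, controls and library choices were alternatives. The script was tested on simulated data. The difference of effects was added to the planned tests.

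Members, protein lists and markers were chosen with earlier results of these data known. All members are named, and of each protein list with a call the 2 smallest p per comparison could be named. Likeness between members was not computed, since the libraries fall into separate sets. Gene names and chromosome arms come from RefSeq and hosts from the Ensembl annotation. Both differ in build from the files, so no positions or sequences are given.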

Additional observations from a re-analysis of the deposited data

Results flagged for a closer look

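The difference of effects, knockdown minus attp2 less mutant minus W1118, passed edgeR's quasi-likelihood test (Benjamini-Hochberg adjusted p under 0.05) for 25 members, which fall into 21 sets of near-equal copies. What accounts for them was not tested, and all 25 lie below 0. On the log2 scale it was -1.43 for snRNA:U1:21D, -1.44 for snRNA:U1:95Ca and snRNA:U1:95Cb, -1.40 for snRNA:U1:95Cc and -1.12 for snRNA:U1:82Eb. Among U2 copies it was -1.86 for snRNA:U2:14B, -1.91 for snRNA:U2:34ABa, -1.57 for snRNA:U2:34ABb and snRNA:U2:34ABc, -1.87 for snRNA:U2:38ABa and -1.79 for snRNA:U2:38ABb. For U4 it was -1.40 in snRNA:U4:38AB and -1.52 in snRNA:U4:39B. For U5 it was -2.02 in snRNA:U5:23D, -1.69 in snRNA:U5:34A, -1.98 in snRNA:U5:38ABa, -1.51 in snRNA:U5:38ABb and -1.77 in snRNA:U5:63BC. The minor spliceosomal RNAs gave -1.52 for U11, -2.02 for U4atac and -2.33 for U6atac. RNase MRP RNA gave -1.09, RNase P RNA -1.08, 7SK -0.70 and CR34335 -0.88. Leaving out 1 library left 22 to 27 members below 0 past the test. The calls of CR34335 and snRNA:U5:38ABb were lost without attp2 replicate 2, knockdown replicate 1, W1118 replicate 1 or mutant replicate 1, that of snRNA:U5:38ABb also without knockdown replicate 2, that of CR34335 also without W1118 replicate 2 or mutant replicate 2, that of U6atac without either of these last 2, and that of U11 without W1118 replicate 2. The groups hold 2 libraries each, too few for a check of single outlying libraries.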

How the results depend on the processing

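The alternatives were scaling, filter, test, control stock, libraries and replicates. Members called in the knockdown, 6 as reported, numbered 12 without scaling factors, 10 without the filter, 2 in a fit of its 4 libraries, 24 with W1118 as control (16 higher, 8 lower) and 15 with the mean of both stocks (10 higher, 5 lower); leaving out 1 library gave 4 to 13, 13 without attp2 replicate 1 and 4 without knockdown replicate 1, which lost RNase P RNA and snRNA:U2:34ABa. Over the whole table the knockdown had 691 genes higher and 665 lower, with upper-quartile scaling 568 higher and 822 lower, and without scaling factors 479 higher and 1008 lower, where the median of all genes lay at -0.10. Members called in the mutant, 26, numbered 25 to 27 under the other settings with W1118, where 1547 to 3033 genes were called over the whole table. With any 1 library left out some of the 26 calls were lost. With Panx FL10B, 8 calls became 14 in a fit of the 4 libraries, where 25 members passed the filter, 2 to 4 with 1 library left out, and 6 to 11 under the other settings.

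With W1118 as control the log2 difference of the knockdown turned to 1.47 for RNase P RNA, 2.22 for snRNA:U2:14B, 0.91 for snRNA:U2:34ABa, 2.12 for snRNA:U2:34ABb, 2.14 for snRNA:U2:34ABc and 2.25 for snRNA:U2:38ABa. With the mean of both stocks it was 0.50, 0.74, 0.68, 0.68 and 0.74 for these without snRNA:U2:34ABa. With attp2 as control the mutant turned to -1.04 for CR34335, -0.08 for RNase MRP RNA, -1.31 for RNase P RNA, -1.72 for U11, -1.86 for snRNA:U2:14B, -0.94 for snRNA:U2:34ABa, -2.08 for snRNA:U2:34ABb, -2.10 for snRNA:U2:34ABc, -1.92 for snRNA:U2:38ABa, -0.06 for snRNA:U4:39B, -2.29 for U4atac and -1.82 for U6atac. With the mean of both stocks it was -0.09 for CR34335, -0.35 for RNase P RNA, -0.41 for U11, -0.37 for snRNA:U2:14B, -0.00 for snRNA:U2:34ABa, -0.64 for snRNA:U2:34ABb, -0.65 for snRNA:U2:34ABc, -0.41 for snRNA:U2:38ABa, -0.40 for U4atac and -0.14 for U6atac. These turns follow from the stocks' own differences; no other setting turned a called direction.

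Same-numbered libraries did not deviate together (r = 0.0944 in the knockdown, -0.0348 in the mutant and -0.0672 with Panx FL10B), and with a replicate block 6, 26 and 10 members were called. Depth limits U6, U7, snRNA:U4:25F and, with Panx FL10B, the near-equal copies.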

Other observations

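The 19 other genes that were at 10 CPM or more in the 8 libraries without Panx FL10B and under 5% of that in the 4 with it included pairs as well. Prosalpha1, a proteasome subunit, and CG30382 were at 153.9 CPM or more in each of the 8 libraries and had no count in the 4. The RNA genes snoRNA:U3:54Aa and snoRNA:U3:54Ab, copies of the U3 RNA of ribosomal RNA processing, were at 45.03 CPM or more in the 8 and at most 0.288 and 0.864 CPM in the 4. The first copy of U3 by symbol, snRNA:U3:22A, was at 0 in all 12, so it does not stand for the level of U3 RNA.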
